A study of Mus musculus with 47 samples.

Results

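The respiratory chain and ATP synthase subunits described here were 92 of the 20320 genes in the deposited count table. They were chosen by gene symbol alone: the Nduf a, b, c, s and v series of complex I, Sdha, Sdhb, Sdhc and Sdhd of complex II, every Uqcr symbol of complex III, the Cox4 to Cox8 subunits with an a, b or c in their name, every Atp5 symbol of complex V, and the Nd, Cytb, Co and Atp genes of the mitochondrial genome, with pseudogene symbols ending in -ps left out. The choice gave 79 nuclear members (37 of complex I, 4 of complex II, 8 of complex III, 13 of complex IV and 17 of complex V) and 13 mitochondrially encoded members (7 of complex I, 1 of complex III, 3 of complex IV and 2 of complex V). The symbols do not match the subunits exactly: Cox4i1 and Cox4i2 of complex IV and Ndufab1 of complex I fall outside the choice, while Atp5s and Atp5sl, which are not core subunits of ATP synthase, fall inside it. Ndufa4 was kept with complex I by its name, although its protein is known as a complex IV subunit.

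Complexes I and II pass electrons from NADH and succinate to ubiquinone, complex III passes them on to cytochrome c, and complex IV reduces oxygen to water. Complexes I, III and IV pump protons across the inner mitochondrial membrane, and complex V uses the gradient to make ATP. All complexes but complex II are built from subunits of both genomes, and in the liver they draw on electrons from fatty acid oxidation, amino acids and the Krebs cycle.

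The samples were livers of 3 inbred mouse strains, both sexes and 2 diets, with one RNA-seq library per sample and 47 libraries in all. NZO/HlLtJ mice are known for obesity and diabetes, CAST/EiJ mice descend from wild ancestors, and C57BL/6J gave the mouse reference genome. In each strain, females and males received a diet with 44% fat, described as high in fat and sugar, or a control diet with 10% fat. Of the 12 groups 11 had 4 libraries, and the males of CAST/EiJ fed 10% fat had 3. Per the labels, both diets contained fiber, all mice were wild type with no other treatment, the diets began at 6 weeks of age and the livers were collected at 15 weeks. RNA was polyadenylated and carried ERCC spike-in RNA. The libraries are labelled as separate samples, but no animal numbers are given, so a p-value reflects how far these samples spread, which may be technical.

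Library totals ran over 21.6 to 47.8 M expected counts (median 40.0 M, where 1 M is 1000000 counts). The members of the mitochondrial genome took 3.65% to 8.10% of a library's counts, and the nuclear members took 0.754% to 1.09%. All 8 hepatocyte markers were present, with a summed level of 45539 to 135689 CPM, the count scaled to a library of 1000000. Of the skeletal muscle markers 3 of 8 were in the table and summed to 0.0814 to 9.11 CPM, and 2 of 4 cardiac muscle markers summed to 0 to 1.05 CPM. Of the brown adipocyte markers, Cidea and Elovl3 were in the table and summed to 0.433 to 1016 CPM, of which Elovl3, also a liver gene, made up nearly all. Erythroid markers summed to 359 to 2148 CPM in all 5 of 5 genes. The 6 Kupffer cell markers, all in the table, summed to 134 to 362 CPM (median 211) in NZO/HlLtJ, 90.6 to 297 CPM (median 161) in CAST/EiJ and 178 to 327 CPM (median 270.3) in C57BL/6J libraries, and the 5 lymphocyte markers, all in the table, to 0.968 to 3.73 CPM (median 2.00), 0.292 to 1.27 CPM (median 0.729) and 1.43 to 3.01 CPM (median 2.49) in the same order of strains. Both medians were lowest in CAST/EiJ, and the part of these cells in the strain differences was not tested. Pancreatic acinar RNA set 5 libraries apart: Cpa1, an acinar protease gene, reached at least 20 CPM in 2 C57BL/6J females on 44% fat, 2 C57BL/6J males on 10% fat and 1 CAST/EiJ female on 44% fat. The 6 acinar genes in the table summed to 2.42 to 13.1 CPM in NZO/HlLtJ, 0.671 to 528 CPM in CAST/EiJ and 2.33 to 571 CPM in C57BL/6J libraries. Where a named member's call changed without these 5 libraries, the value without them stands with the result. Sample identifiers fell into 3 runs of consecutive numbers, whose meaning the labels do not give, and diet differences within these runs stand beside the pooled ones. In bulk liver, fewer cells of a type and less RNA per cell cannot be told apart, and neither can the abundance of a mitochondrial transcript and the share of it that is polyadenylated.

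Levels spanned several orders of magnitude and followed the genome of origin. Per kilobase of merged exons, mt-Co1, the catalytic subunit of complex IV, averaged 12492 CPM per kb in C57BL/6J livers and mt-Cytb, the cytochrome b of complex III, 6369 CPM per kb. The highest nuclear members on the same scale were the alpha and beta subunits of the ATP synthase catalytic head, Atp5a1 at 269 and Atp5b at 236 CPM per kb. Medians over the nuclear members of a complex in C57BL/6J livers were 35.6 CPM per kb for complex I, 85.7 for complex II, 90.8 for complex III, 46.2 for complex IV and 51.8 for complex V.

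The liver-type isoforms of complex IV were far above the isoforms known from muscle, testis and other tissues. Cox6a1 averaged 208 CPM per kb in C57BL/6J livers, against 0.0581 for Cox6a2, the heart and muscle form. Cox6b1 averaged 161 CPM per kb, against 0.115 for the testis form Cox6b2. Cox7a2 averaged 88.3 CPM per kb, against 1.83 for the heart and muscle form Cox7a1. Ndufa4 averaged 109 CPM per kb and its paralog Ndufa4l2, known as a hypoxia-induced gene, 0.636 CPM per kb. Cox6a2 was the single member that did not pass the filter on low counts, which left 91 members for testing, 78 nuclear and 13 mitochondrial.

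Summed over all 79 nuclear members, CAST/EiJ livers were highest. Sums are given in kCPM, each 1000 CPM. The sum was 7.16 to 10.0 kCPM (median 8.90) in NZO/HlLtJ livers, 9.39 to 11.1 kCPM (median 10.3) in CAST/EiJ livers and 7.41 to 10.2 kCPM (median 8.58) in C57BL/6J livers, with 16, 15 and 16 libraries. CAST/EiJ libraries overlapped the top of both other strains. The 13 mitochondrially encoded members together with their near-identical nuclear copies, described further on, summed to 42.4 to 75.3 kCPM (median 61.6) in NZO/HlLtJ, 69.9 to 96.7 kCPM (median 78.8) in CAST/EiJ and 43.2 to 75.4 kCPM (median 59.4) in C57BL/6J livers. The ratio of this sum to the nuclear sum was 4.78 to 9.09 (median 6.99) in NZO/HlLtJ, 6.28 to 9.80 (median 7.72) in CAST/EiJ and 5.38 to 8.64 (median 6.92) in C57BL/6J livers, and the 3 ranges overlapped over most of their length.

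**Figure D1:**
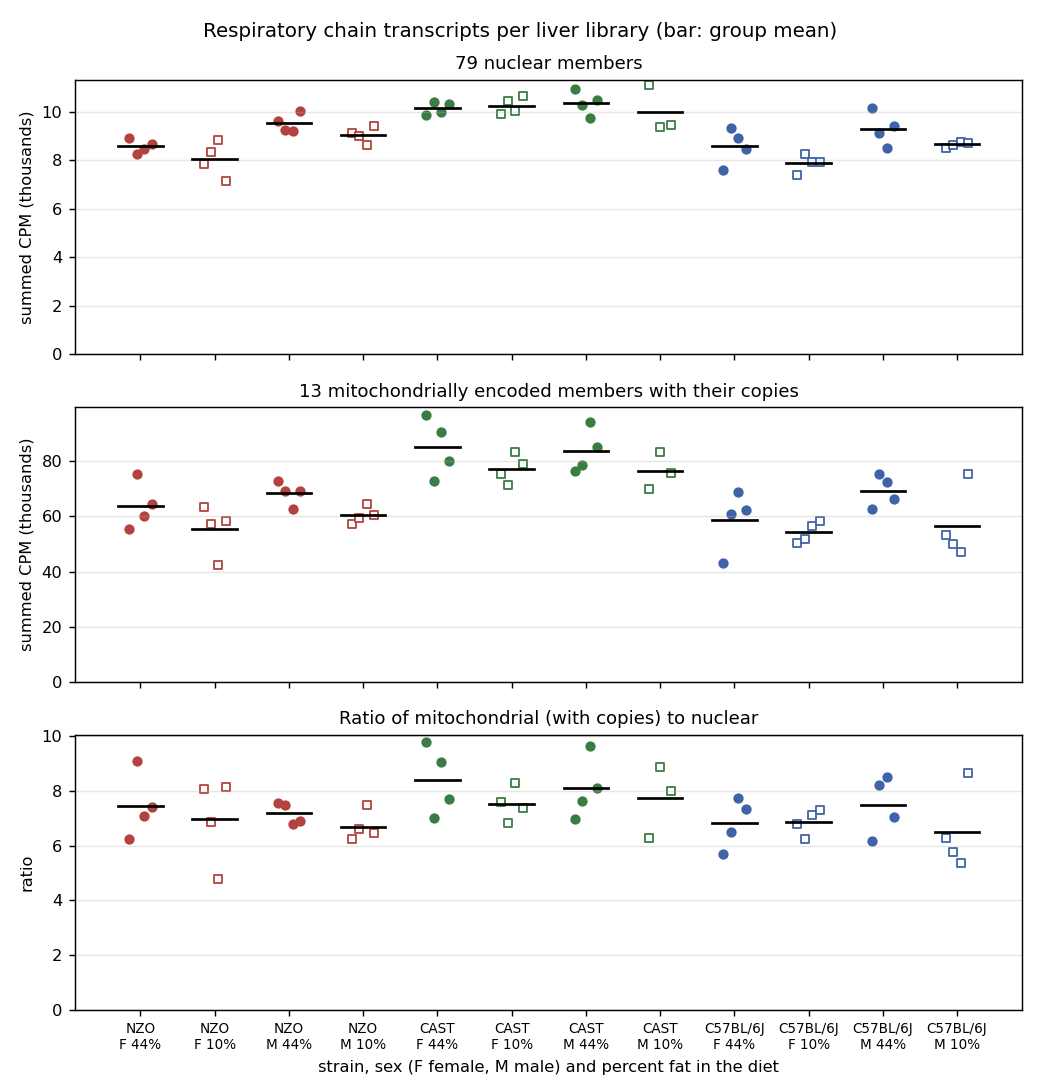
Summed level in kCPM of the 79 nuclear members (top), of the 13 mitochondrially encoded members with their nuclear copies (middle), and the ratio of the second to the first (bottom), by strain, sex and diet. Each point is a library, filled circles are 44% fat, open squares are 10% fat and bars are group means; the nuclear sum had a median of 10.3 kCPM in CAST/EiJ and 8.58 kCPM in C57BL/6J livers.

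By complex, the largest shift in summed nuclear level between CAST/EiJ and C57BL/6J livers was in complex V. Its 17 nuclear members averaged 4.35 ± 0.213 kCPM in CAST/EiJ and 3.45 ± 0.257 kCPM in C57BL/6J livers (SD, n = 15 and 16). Without copies every CAST/EiJ library lay above every C57BL/6J library, at 3.99 to 4.75 kCPM (median 4.36) against 2.96 to 3.96 kCPM (median 3.45). The gap from 3.96 to 3.99 kCPM is smaller than the level of Gm10175, a copy of Atp5g2 described further on, in C57BL/6J livers. This separation therefore does not hold once Gm10175, nearly absent from CAST/EiJ libraries, is counted. Complex III averaged 1.24 ± 0.069 and 1.01 ± 0.092 kCPM in the same order, complex IV 1.27 ± 0.077 and 1.08 ± 0.113, complex I 2.43 ± 0.128 and 2.19 ± 0.195, and complex II 0.912 ± 0.042 and 0.886 ± 0.079. The ranges of the 2 strains overlapped in these 4 complexes. A sum follows its most abundant members, such as Atp5b in complex V. By the median log2 fold change of single members, with copies added, complex V was at 0.16. Complex III was at 0.24 and complex IV at 0.26 on that measure. In NZO/HlLtJ livers the means were 2.24 ± 0.170, 0.923 ± 0.084, 1.03 ± 0.081, 1.05 ± 0.097 and 3.56 ± 0.289 kCPM for complexes I to V (SD, n = 16), each within 1 SD of C57BL/6J.

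Strain comparisons were averaged over sexes and diets and tested in edgeR by quasi-likelihood, with p adjusted by Benjamini and Hochberg's method over all 16650 genes tested. A member was called at an adjusted p under 0.05. Fold changes are log2 values with standard errors. In CAST/EiJ against C57BL/6J livers 71 of 91 members were called, 58 higher and 13 lower, where 67.9% of all genes were called (32.6% higher and 35.3% lower). The nuclear members gave 59 of 78 (47 higher and 12 lower) and a median log2 fold change of 0.16, beside -0.02 over all genes. The mitochondrial members gave 12 of 13 (11 higher and 1 lower) and a median of 0.48. Most calls in both sets were in the higher direction. By complex the nuclear calls were 22 higher and 7 lower of 37 in complex I, 1 and 1 of 4 in complex II, 6 and 0 of 8 in complex III, 8 and 2 of 12 in complex IV, and 10 and 2 of 17 in complex V.

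In complex I, 22 members rose and 7 fell in CAST/EiJ livers. Ndufv2, which holds an iron-sulfur cluster of the electron input module, ran over 59.1 to 76.7 CPM in NZO/HlLtJ livers (median 68.2), 92.7 to 113 CPM in CAST/EiJ livers (median 104) and 53.3 to 73.8 CPM in C57BL/6J livers (median 64.2). Every CAST/EiJ library lay above every library of the other strains, and the fold change against C57BL/6J was 0.69 ± 0.04, adjusted p = 5.63e-20. The accessory subunit Ndufc1 ran over 14.3 to 19.7 CPM in NZO/HlLtJ livers (median 17.3), 20.5 to 26.3 CPM in CAST/EiJ livers (median 23.6) and 14.3 to 19.4 CPM in C57BL/6J livers (median 15.7), with the same separation of CAST/EiJ from the other strains and a fold change against C57BL/6J of 0.57 ± 0.04, adjusted p = 1.4e-14. Ndufb6, a membrane arm subunit, rose by 0.36 ± 0.03, adjusted p = 1.35e-13. In the other direction, Ndufa6 fell at -0.41 ± 0.06, adjusted p = 1.59e-08, Ndufa4 at -0.20 ± 0.04, adjusted p = 6.51e-05, and Ndufa4l2, at a median of 0.386 CPM in CAST/EiJ and 0.706 CPM in C57BL/6J livers, at -1.11 ± 0.21, adjusted p = 1.28e-05.

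Complex II moved in 1 subunit far more than in the others. Sdhb, the iron-sulfur subunit of succinate dehydrogenase, ran over 117 to 211 CPM in NZO/HlLtJ livers (median 171), 141 to 207 CPM in CAST/EiJ livers (median 174) and 99.1 to 146 CPM in C57BL/6J livers (median 117). Its fold change against C57BL/6J was 0.49 ± 0.05, adjusted p = 4.02e-12 in CAST/EiJ and 0.46 ± 0.05, adjusted p = 4.69e-11 in NZO/HlLtJ livers, comparisons that share the C57BL/6J libraries. Sdha, the flavoprotein subunit, fell slightly in CAST/EiJ livers (-0.09 ± 0.03, adjusted p = 0.0134) and was at -0.01 ± 0.03, adjusted p = 0.804 in NZO/HlLtJ livers. Sdhc, a membrane anchor, was at -0.00 ± 0.04 in CAST/EiJ and 0.04 ± 0.04 in NZO/HlLtJ livers and was called in neither. Sdhd, the other anchor, fell in NZO/HlLtJ livers (-0.11 ± 0.04, adjusted p = 0.0135) and was not called in CAST/EiJ livers (0.05 ± 0.04, adjusted p = 0.266).

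Complex III members were higher in CAST/EiJ livers in 6 of 8 cases and lower in none. Uqcrc1, a core protein of the complex, ran over 152 to 245 CPM in NZO/HlLtJ livers (median 201), 239.9 to 313 CPM in CAST/EiJ livers (median 261) and 156 to 219 CPM in C57BL/6J livers (median 187), so that no CAST/EiJ library overlapped C57BL/6J, and its fold change was 0.52 ± 0.04, adjusted p = 1.26e-15. Uqcr10, a small accessory subunit, was at 49.6 to 85.5 CPM in NZO/HlLtJ livers (median 60.7), 81.5 to 103 CPM in CAST/EiJ livers (median 88.1) and 46.9 to 82.4 CPM in C57BL/6J livers (median 60.1). The lowest CAST/EiJ library lay inside the C57BL/6J range, and the fold change was 0.58 ± 0.05, adjusted p = 2.95e-13. The Rieske iron-sulfur protein Uqcrfs1 rose by 0.33 ± 0.04, adjusted p = 3.73e-10. Uqcrb (0.08 ± 0.04, adjusted p = 0.0782) and Uqcrh, the hinge protein (0.03 ± 0.05, adjusted p = 0.629), were not called.

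In complex IV the higher calls in CAST/EiJ livers were Cox5b, Cox5a, Cox6a1, Cox6b1, Cox7a2, Cox7b, Cox7c and Cox8a. Apart from Cox5b, their fold changes ran over 0.11 (Cox7b) to 0.28 (Cox8a). Cox5b, a subunit on the matrix side, had a fold change of 0.72 ± 0.05, adjusted p = 4.07e-17, which shrank to 0.42 ± 0.05, adjusted p = 5.69e-10 once a near-identical copy was added. The 2 lower calls were members at a low level. Cox7a1 ran over 0.0755 to 0.518 CPM in NZO/HlLtJ livers (median 0.183), 0.276 to 0.998 CPM in CAST/EiJ livers (median 0.607) and 0.621 to 1.49 CPM in C57BL/6J livers (median 0.922). Every NZO/HlLtJ library lay below every C57BL/6J library, and the CAST/EiJ range overlapped both. Its fold changes against C57BL/6J were -0.81 ± 0.18, adjusted p = 0.000169 in CAST/EiJ and -2.28 ± 0.20, adjusted p = 7.78e-13 in NZO/HlLtJ livers. Cox6b2, with medians of 0.0292 CPM in CAST/EiJ and 0.0736 CPM in C57BL/6J livers, was at -1.17 ± 0.49, adjusted p = 0.032, and was not called without the 5 acinar libraries (adjusted p = 0.375). Beside the muscle-type isoform Cox7a1, the muscle gene Ckm had medians of 0.0256 CPM in NZO/HlLtJ, 0.0306 CPM in CAST/EiJ and 0.0211 CPM in C57BL/6J livers. The muscle gene Myh4 had medians of 0.0426, 0.0248 and 0.0240 CPM in the same order of strains. Mylpf, also a muscle gene, had medians of 0.202, 0.273 and 0.376 CPM, the strain order of Cox7a1. The part of muscle RNA in the Cox7a1 difference was not tested.

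In complex V 10 members rose and 2 fell, and with copies added 9 rose and 2 fell. Atp5b, the catalytic beta subunit, ran over 809 to 1224 CPM in NZO/HlLtJ livers (median 1008), 1299.9 to 1568 CPM in CAST/EiJ livers (median 1424) and 862 to 1086 CPM in C57BL/6J livers (median 994). The lowest CAST/EiJ library was above the highest library of each other strain, and the fold change against C57BL/6J was 0.50 ± 0.04, adjusted p = 6.87e-16. Atp5o, the oligomycin sensitivity protein of the stalk, ran over 90.2 to 131 CPM in NZO/HlLtJ livers (median 113), 149.5 to 188 CPM in CAST/EiJ livers (median 166) and 91.7 to 119.6 CPM in C57BL/6J livers (median 102), again with no overlap between CAST/EiJ and the other strains, and rose by 0.72 ± 0.04, adjusted p = 4.92e-18. Atp5k, a membrane subunit, rose by 0.71 ± 0.06, adjusted p = 7.41e-15, at 59.9 to 83.2 CPM in CAST/EiJ livers (median 70.1), against 37.2 to 55.4 CPM in C57BL/6J livers (median 42.0). Of the genes that encode the c subunit of the rotor, Atp5g1 rose by 0.41 ± 0.05, adjusted p = 1.48e-09 and Atp5g3 by 0.23 ± 0.04, adjusted p = 4.41e-07, while Atp5g2 has a copy that is described with mt-Co2. Atp5sl, which shares the symbol stem but is not a core subunit, fell to 10.0 to 14.7 CPM in CAST/EiJ, against 18.8 to 33.0 CPM in C57BL/6J livers (-1.05 ± 0.06, adjusted p = 3.06e-18).

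**Figure D2:**
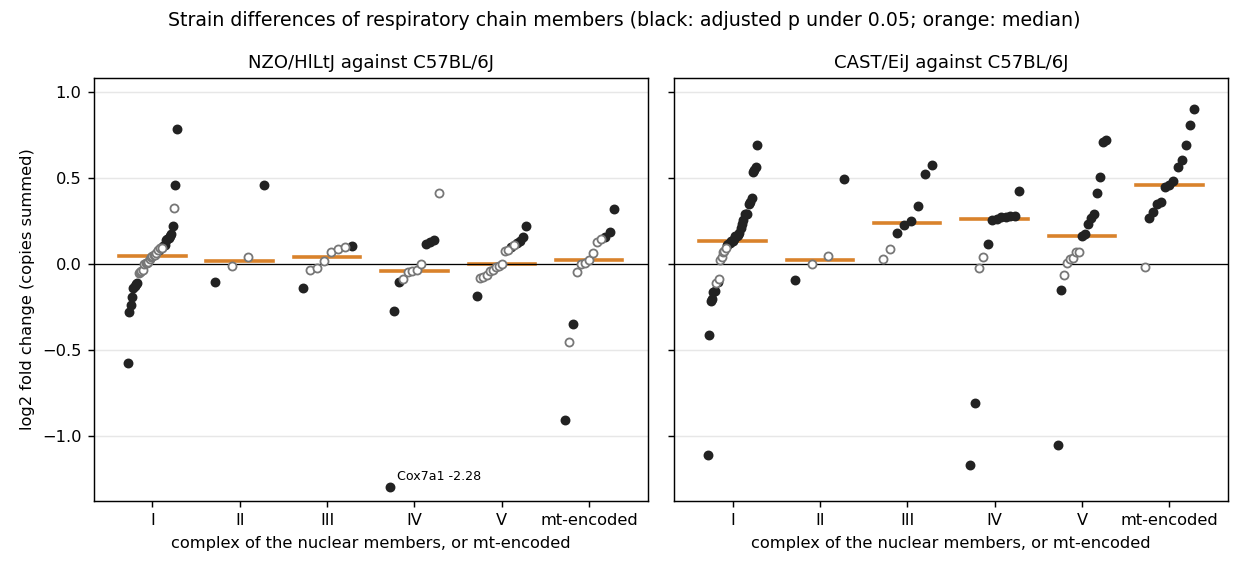
Log2 fold changes of the 91 tested members against C57BL/6J, in NZO/HlLtJ (left) and CAST/EiJ (right), by complex for nuclear members and together for mitochondrially encoded ones, with counts of near-identical copies added to their members. Each point is a gene, black points have an adjusted p under 0.05 and orange lines are medians; in CAST/EiJ the mitochondrial median was 0.46 and the nuclear medians ran over 0.02 (complex II) to 0.26 (complex IV), while Cox7a1 at -2.28 in NZO/HlLtJ is drawn at the lower edge.

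The mitochondrially encoded members were higher in CAST/EiJ than in C57BL/6J livers in all but 2 cases. The catalytic core subunit mt-Nd5 of complex I ran over 2289 to 4836 CPM in NZO/HlLtJ livers (median 4023), 4983 to 8045 CPM in CAST/EiJ livers (median 6456) and 2913 to 4657 CPM in C57BL/6J livers (median 3546), with every CAST/EiJ library above every library of the other strains and a fold change of 0.81 ± 0.07, adjusted p = 2.68e-13 against C57BL/6J. mt-Nd6, the one member on the light strand, rose by 0.90 ± 0.07, adjusted p = 8.89e-15, also with no overlap between CAST/EiJ and C57BL/6J libraries. mt-Nd1 rose by 0.46 ± 0.07, mt-Nd4 by 0.48 ± 0.07, mt-Nd2 by 0.30 ± 0.07 and mt-Nd4l by 0.28 ± 0.09, with adjusted p between 9.94e-08 and 0.00579. mt-Cytb ran over 5592 to 9403 CPM in NZO/HlLtJ livers (median 8099), 8722 to 13087 CPM in CAST/EiJ livers (median 10503) and 5196 to 9542 CPM in C57BL/6J livers (median 7518) and rose by 0.56 ± 0.06, adjusted p = 2.46e-10. mt-Co1 rose by 0.27 ± 0.06, adjusted p = 0.000143, mt-Co3 by 0.59 ± 0.08, adjusted p = 1.61e-08 and mt-Atp6 by 0.90 ± 0.09, adjusted p = 3.49e-12. mt-Atp8 rose by 0.70 ± 0.27, adjusted p = 0.0208, with ranges that overlapped widely. mt-Nd3 was not called (-0.16 ± 0.09, adjusted p = 0.0913). Without the 5 acinar libraries mt-Nd4l (0.18, adjusted p = 0.0835) and mt-Atp8 (0.58, adjusted p = 0.0928) were not called, and mt-Nd3 was called lower (-0.21, adjusted p = 0.0435). With near-identical copies added, as described further on, mt-Nd3 was at -0.02 ± 0.11 over all libraries, adjusted p = 0.912. On the same footing mt-Nd4l was called higher, at 0.35 ± 0.11, adjusted p = 0.00737.

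mt-Co2, which encodes the copper-bearing subunit of complex IV, went the other way by a factor that no other member approached. Its level was 1577 to 2799 CPM in NZO/HlLtJ livers (median 2097), 5.55 to 11.6 CPM in CAST/EiJ livers (median 7.53) and 1339 to 2695 CPM in C57BL/6J livers (median 2030.0), and the fold change was -8.05 ± 0.13, adjusted p = 1.32e-38 in CAST/EiJ against C57BL/6J. CAST/EiJ libraries had counts under Gm13341, an unprocessed pseudogene on chromosome 2 (22587291 to 22587962, GRCm38), which ran over 0 to 0.09 CPM in NZO/HlLtJ livers (median 0.025), 578 to 2669 CPM in CAST/EiJ livers (median 1301) and 0 to 0.59 CPM in C57BL/6J livers (median 0.0571). A further copy, Gm28661 on chromosome 1 (24614885 to 24615565), ran over 1927 to 3619.7 CPM in NZO/HlLtJ livers (median 2923), 3733 to 5099 CPM in CAST/EiJ livers (median 4592) and 1702 to 3800.3 CPM in C57BL/6J livers (median 2659.6). With both copies added, the sum ran over 3502 to 6422 CPM in NZO/HlLtJ livers (median 5057), 4995 to 7666 CPM in CAST/EiJ livers (median 5768) and 3039.5 to 6445 CPM in C57BL/6J livers (median 4736). The 3 strains then overlapped, and mt-Co2 with its copies was higher in CAST/EiJ livers, at 0.36 ± 0.08, adjusted p = 0.000261 against C57BL/6J.

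A stretch of 100 bases shows how alike these genes are: it is the same in mt-Co2 and Gm28661, and differs from Gm13341 at 7 bases, set in capitals in both. The stretches lie at chrMT:7457-7556 (plus strand), chr2:22587431-22587530 (minus strand) and chr1:24615022-24615121 (minus strand) of GRCm38, which is the C57BL/6J sequence.
mt-Co2: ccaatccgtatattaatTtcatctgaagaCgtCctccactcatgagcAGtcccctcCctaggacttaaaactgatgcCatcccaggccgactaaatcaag
Gm13341: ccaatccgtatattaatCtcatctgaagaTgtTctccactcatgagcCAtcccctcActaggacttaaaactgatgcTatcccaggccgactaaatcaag
Gm28661: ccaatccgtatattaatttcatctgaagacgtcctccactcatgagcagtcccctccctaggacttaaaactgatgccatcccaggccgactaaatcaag

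All 47 libraries held fractional values for mt-Co2, mt-Co1, mt-Co3, mt-Atp6, mt-Nd3 and mt-Nd4l, while values of mt-Nd1, mt-Nd6, mt-Cytb and mt-Atp8 were whole in every library. The sequence of CAST/EiJ mice was not used here, and its part in the split of counts was not tested.

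Of the 92 members, 24 had at least 1 such copy among the genes in the table, 33 copies in all, defined by an alignment of at least 95% identity over at least 200 bases and 50% of the copy. Atp5g2 was the clearest nuclear case. It ran over 2.52 to 5.82 CPM in NZO/HlLtJ livers (median 3.82), 54.4 to 70.4 CPM in CAST/EiJ livers (median 63.3) and 2.07 to 5.67 CPM in C57BL/6J livers (median 3.67), while its pseudogene Gm10175 on chromosome 7 (23946646 to 23947290) ran over 44.5 to 63.5 CPM in NZO/HlLtJ livers (median 58.2), 0 to 0.279 CPM in CAST/EiJ livers (median 0) and 51.9 to 64.0 CPM in C57BL/6J livers (median 57.9). Summed, the pair with a further copy ran over 47.1 to 66.2 CPM in NZO/HlLtJ livers (median 62.3), 54.4 to 70.7 CPM in CAST/EiJ livers (median 63.4) and 53.9 to 68.5 CPM in C57BL/6J livers (median 62.2). The 3 strains then overlapped almost fully, and the fold change of CAST/EiJ against C57BL/6J was 0.03 ± 0.04, adjusted p = 0.588, in place of 3.98 ± 0.11, adjusted p = 6.45e-29 for Atp5g2 alone. The first 60 bases of the copy equal a spliced stretch of Atp5g2, which spans 102667748 to 102671045 on chromosome 15 (minus strand) with introns left out, and no base differs.
Atp5g2: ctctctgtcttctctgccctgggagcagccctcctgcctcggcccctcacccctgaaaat
Gm10175: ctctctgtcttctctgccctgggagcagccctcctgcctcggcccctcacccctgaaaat

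Cox5b and Gm11273 on chromosome 13 differed at 2 of the 100 bases shown, in capitals, at chr1:36692451-36692550 (plus strand) and chr13:21501142-21501241 (minus strand).
Cox5b: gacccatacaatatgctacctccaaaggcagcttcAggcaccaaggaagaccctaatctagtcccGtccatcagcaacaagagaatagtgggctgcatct
Gm11273: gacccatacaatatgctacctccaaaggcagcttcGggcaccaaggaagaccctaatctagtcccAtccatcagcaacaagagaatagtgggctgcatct

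Gm11273 ran over 10.3 to 19.97 CPM in NZO/HlLtJ, 0 to 0.192 CPM in CAST/EiJ and 10.3 to 26.4 CPM in C57BL/6J livers, so the counts of this copy were nearly absent from CAST/EiJ libraries. mt-Atp6 and its copy Gm10925 ran over 2826 to 4826 CPM and 1568 to 2174 CPM in CAST/EiJ livers and over 1341 to 2581 CPM and 1324 to 2848 CPM in C57BL/6J livers. The fold change of mt-Atp6 in CAST/EiJ against C57BL/6J was 0.90 alone and 0.45 ± 0.09, adjusted p = 1.29e-05 with the copy. Gm6969, a copy of Cox7a2l on chromosome 12, ran the other way, at 0.0213 to 2.63 CPM in NZO/HlLtJ, 2.66 to 6.69 CPM in CAST/EiJ and 0.0473 to 0.352 CPM in C57BL/6J livers. With copies added, the count of called members in CAST/EiJ against C57BL/6J was 71, with 59 higher and 12 lower, where 67.9% of all genes were called, and the mitochondrial median was 0.46. The 63 tested nuclear members with no such copy gave 50 calls, 38 higher and 12 lower.

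**Figure D3:**
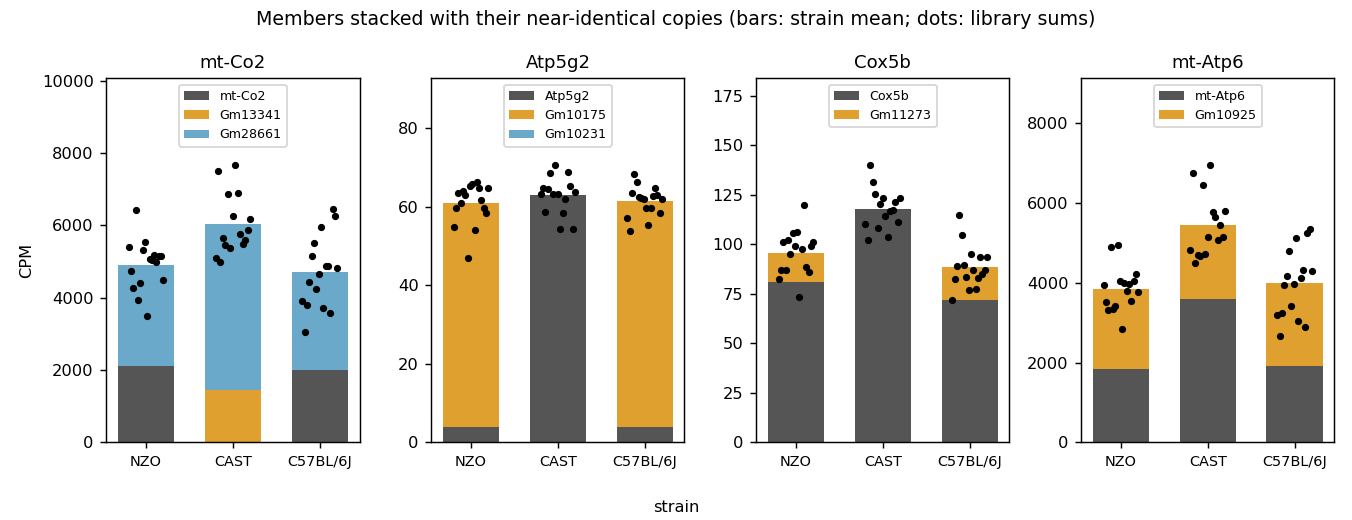
Mean CPM of mt-Co2, Atp5g2, Cox5b and mt-Atp6 in each strain, stacked with their near-identical copies; bars start at 0 and dots are the sums in single libraries (16 NZO/HlLtJ, 15 CAST/EiJ and 16 C57BL/6J). The stacked sums of mt-Co2 had medians of 5057, 5768 and 4736 CPM in the 3 strains, although mt-Co2 itself is nearly absent from the CAST/EiJ bar.

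In NZO/HlLtJ against C57BL/6J livers 40 of 91 members were called, 24 higher and 16 lower, where 49.1% of all genes were called (25.5% higher and 23.6% lower). The nuclear members gave 35 of 78 (21 higher and 14 lower) and the mitochondrial members 5 of 13 (3 higher and 2 lower), with median log2 fold changes of 0.02 in both sets and -0.00 over all genes. Ndufa12, an accessory subunit of complex I, ran over 31.3 to 57.6 CPM in NZO/HlLtJ livers (median 51.8), 38.9 to 56.0 CPM in CAST/EiJ livers (median 42.1) and 25.9 to 35.0 CPM in C57BL/6J livers (median 29.7). The ranges of NZO/HlLtJ and C57BL/6J overlapped, and the fold change was 0.79 ± 0.06, adjusted p = 2.47e-15. The overlap came from NZO/HlLtJ males on 44% fat, where, with copies added, the lowest library was at 31.3 CPM beside a median of 56.7 CPM. The other NZO/HlLtJ groups began at 45.3 CPM or higher. Ndufb8, a membrane arm subunit, rose by 0.46 ± 0.05, adjusted p = 2.69e-09. Ndufa6 ran over 42.3 to 59.6 CPM in NZO/HlLtJ livers (median 51.3), 49.8 to 66.7 CPM in CAST/EiJ livers (median 56.2) and 54.7 to 95.1 CPM in C57BL/6J livers (median 75.4) and fell, at -0.57 ± 0.05, adjusted p = 7.28e-12. Ndufs7, an iron-sulfur core subunit next to the quinone site, fell as well (-0.28 ± 0.05, adjusted p = 2.8e-05), and Ndufa4 fell by a smaller amount (-0.11 ± 0.04, adjusted p = 0.0218, not called without the 5 acinar libraries at adjusted p = 0.0648).

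mt-Nd2, a core subunit of the proton-pumping arm of complex I, had the lowest fold change among mitochondrial members in NZO/HlLtJ livers. It ran over 1595 to 2679 CPM in NZO/HlLtJ livers (median 2271), 4193 to 6714 CPM in CAST/EiJ livers (median 5224) and 3258 to 5715 CPM in C57BL/6J livers (median 4101). All 16 NZO/HlLtJ libraries lay below every C57BL/6J and every CAST/EiJ library. The fold change was -0.91 ± 0.07, adjusted p = 4.32e-15 against C57BL/6J and -1.21 ± 0.07, adjusted p = 2.34e-19 against CAST/EiJ. Its copy Gm13339 was added without ending the call (-0.91 ± 0.07, adjusted p = 4.33e-15). mt-Nd3 fell as well (-0.45 ± 0.09, adjusted p = 2.35e-05), and by less with copies added (-0.35 ± 0.11, adjusted p = 0.00784). The neighbours of mt-Nd2 on the mitochondrial genome had other values: mt-Nd1, at 2751 to 3707 on chromosome MT before mt-Nd2 at 3914 to 4951, was at 0.02 ± 0.07, and mt-Co1, at 5328 to 6872 after it, was at 0.18 ± 0.06, adjusted p = 0.00865. Small rises were called for mt-Nd6 (0.32 ± 0.07, adjusted p = 0.000169) and mt-Cytb (0.15 ± 0.06, adjusted p = 0.0373). Without the 5 acinar libraries neither mt-Co1 (0.09, adjusted p = 0.198) nor mt-Cytb (0.06, adjusted p = 0.393) was called, and the call of mt-Cytb was lost under 4 of 9 alternative settings and in 13 of 32 refits that left out 1 library.

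Outside complexes I and II the calls in NZO/HlLtJ livers were small, apart from Cox7a1. Uqcrh fell (-0.14 ± 0.05, adjusted p = 0.00748) and Uqcrc1 rose (0.10 ± 0.04, adjusted p = 0.0224, a call kept under 5 of 9 alternative settings and lost without the 5 acinar libraries at 0.08, adjusted p = 0.152). Cox7c fell (-0.28 ± 0.05, adjusted p = 3.15e-05) and Cox6c fell (-0.11 ± 0.04, adjusted p = 0.0432), while Cox5b (0.17 ± 0.05, adjusted p = 0.00224), Cox7b (0.14 ± 0.04, adjusted p = 0.00908) and Cox7a2l, a supercomplex factor (0.11 ± 0.04, adjusted p = 0.0156), rose. With its copy added Cox5b was at 0.12 ± 0.05, adjusted p = 0.0419. In complex V, Atp5k (0.22 ± 0.05, adjusted p = 0.000737), Atp5o (0.15 ± 0.04, adjusted p = 0.00295), Atp5a1 (0.13 ± 0.04, adjusted p = 0.00168) and Atp5f1 (0.10 ± 0.03, adjusted p = 0.00885) rose and Atp5j, a stalk subunit, fell (-0.19 ± 0.04, adjusted p = 3.67e-05).

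Set against CAST/EiJ, NZO/HlLtJ livers had 69 of 91 members called, 13 higher and 56 lower, where 68.1% of all genes were called (35.3% higher and 32.8% lower). The medians were -0.16 for nuclear and -0.49 for mitochondrial members. All 8 nuclear complex III members had a negative fold change and 7 were called. Atp5b was at -0.50 ± 0.04, adjusted p = 8.01e-16 and Atp5sl at 0.97 ± 0.06, adjusted p = 4.15e-17. mt-Co2 was at 8.11 alone and at -0.30 ± 0.08, adjusted p = 0.00215 with its copies, a change of direction. Atp5g2 was at -4.02 alone and -0.04 ± 0.04, adjusted p = 0.423 with its copies, and Cox7a2l at 0.16 ± 0.04, adjusted p = 0.000503 alone and 0.09 ± 0.04, adjusted p = 0.0629 with Gm6969. Without the 5 acinar libraries Ndufa4 was called higher (0.10, adjusted p = 0.0293). This comparison shares libraries with both others.

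A stricter description counts members whose libraries do not overlap between strains. In NZO/HlLtJ against C57BL/6J, 0 members lay wholly above and 2 wholly below (Cox7a1 and mt-Nd2), where 3.78% of all genes did not overlap. In CAST/EiJ against C57BL/6J, 13 lay above and 2 below, where 12.3% did not overlap. The 13 were Ndufa12, Ndufb6, Ndufc1, Ndufv2, Uqcrc1, Cox5b, Atp5b, Atp5g2, Atp5k, Atp5o, mt-Nd5, mt-Nd6 and mt-Atp6, and the 2 were Atp5sl and mt-Co2. In NZO/HlLtJ against CAST/EiJ, 2 lay above (Atp5sl and mt-Co2) and 14 below (among them Ndufb6, Ndufv2, Cox5a, Atp5b, Atp5o, mt-Nd2 and mt-Nd5), where 11.7% did not overlap. All these counts are of members without their copies. With copies added, Atp5g2, Cox5b, mt-Atp6 and mt-Co2 overlapped between CAST/EiJ and each other strain, so fewer members stood apart. Cox5b then began at 102 CPM in CAST/EiJ and reached 114 CPM in C57BL/6J and 120 CPM in NZO/HlLtJ livers. For mt-Atp6 the same values were 4508, 5350 and 4950 CPM.

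Genes that build and supply the chain were counted from lists, of which the isoform list alone holds members. The counts stand beside 67.9% of all genes called in CAST/EiJ and 49.1% in NZO/HlLtJ against C57BL/6J livers. In CAST/EiJ against C57BL/6J livers the assembly factors gave 34 of 45 (25 higher and 9 lower), with Lyrm7, which loads the Rieske protein into complex III, at 1.92 and the complex I assembly factor Ndufaf2 at -0.97. Factors of mitochondrial DNA copying and RNA handling gave 23 of 30 (18 higher and 5 lower), with the transcription factor Mterf3 at 1.01 and the single-strand binding protein Ssbp1 at 0.66. The mitochondrial ribosome gave 50 of 77 (41 higher and 9 lower), the Krebs cycle and pyruvate dehydrogenase 15 of 17 (10 higher and 5 lower), the regulators 8 of 13 (3 higher and 5 lower) and the cytosolic ribosome 44 of 78 (30 higher and 14 lower). Among regulators, Esrra, a nuclear receptor of mitochondrial genes, was at 0.70, Ppargc1b, its coactivator, at 1.39 and Nrf1 at -0.49 (log2 fold changes, adjusted p = 1.82e-16, 4.13e-09 and 1.31e-09 in the same order). The isoform list gave 14 of 15 (10 higher and 4 lower).

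In NZO/HlLtJ against C57BL/6J livers, where 49.1% of all genes were called, the assembly factors gave 34 of 45 (27 higher and 7 lower) with Lyrm7 at 1.91 and Cox18, which inserts a complex IV subunit, at 1.13. Mitochondrial DNA and RNA factors gave 17 of 30 (13 higher and 4 lower), the mitochondrial ribosome 30 of 77 (19 higher and 11 lower), the Krebs cycle 11 of 17 (7 higher and 4 lower), the regulators 5 of 13 (2 higher and 3 lower), the cytosolic ribosome 28 of 78 (4 higher and 24 lower) and the isoforms 5 of 15 (2 higher and 3 lower). No test of a list as a whole was made.

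The diet contrast asked what 44% fat did against 10% fat within each strain, over both sexes. Few members passed the test. In NZO/HlLtJ livers 7 of 91 members were called, all higher on 44% fat, where 5.64% of all genes were called (3.5% higher and 2.14% lower). In CAST/EiJ livers 0 were called by edgeR's quasi-likelihood test, with 1 at an unadjusted p under 0.05, where 0.895% of all genes were called (0.498% higher and 0.396% lower), and DESeq2 also called 0. With copies added to the members the CAST/EiJ count was again 0, where 0.896% of all genes were called (0.499% higher and 0.397% lower). In C57BL/6J livers 1 was called, higher on 44% fat, where 0.991% of all genes were called (0.823% higher).

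The 7 called in NZO/HlLtJ livers belonged to complexes I to III. Ndufa10, an accessory subunit of complex I, ran over 111 to 145 CPM in livers on 44% fat (median 126), against 89.5 to 124 CPM in livers on 10% fat (median 109). The groups overlapped, and the fold change was 0.22 ± 0.05, adjusted p = 0.00616. Ndufs1, the large iron-sulfur subunit of complex I, ran over 124 to 171 CPM in livers on 44% fat (median 137), against 101 to 131 CPM in livers on 10% fat (median 123), with a fold change of 0.20 ± 0.06, adjusted p = 0.0304. Sdha ran over 464 to 538 CPM in livers on 44% fat (median 511), against 372 to 508 CPM in livers on 10% fat (median 454), at 0.17 ± 0.05, adjusted p = 0.0213. Uqcrc1 ran over 183 to 245 CPM in livers on 44% fat (median 215), against 152 to 207 CPM in livers on 10% fat (median 191), at 0.19 ± 0.05, adjusted p = 0.0233. Uqcrc2, the other core protein of complex III, was at 0.18 ± 0.05, adjusted p = 0.0152 and Uqcrfs1 at 0.18 ± 0.05, adjusted p = 0.03, also with overlapping groups. The same 6 were at 0.13 (Ndufa10), 0.17 (Ndufs1), 0.14 (Sdha), 0.16 (Uqcrc1), 0.15 (Uqcrc2) and 0.13 (Uqcrfs1) in C57BL/6J livers and between -0.02 (Uqcrfs1) and 0.08 (Ndufa10) in CAST/EiJ livers, with none called.

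Ndufb4, a complex I accessory subunit, had the largest called fold change in NZO/HlLtJ livers at 0.31 ± 0.06, adjusted p = 0.00117, with 16.6 to 23.4 CPM in livers on 44% fat (median 19.1), against 13.5 to 18.2 CPM in livers on 10% fat (median 15.5). Its identical copy Ndufb4c on chromosome 15 was counted separately, at a median of 27.2 CPM in NZO/HlLtJ livers, above Ndufb4 itself. With the copy added, Ndufb4 was no longer called (0.13 ± 0.06, adjusted p = 0.207), which left 6 calls, where 5.64% of all genes were called (3.49% higher and 2.15% lower). With NZO/HlLtJ libraries fitted alone 3 members were called, and with DESeq2 13 were. The count was 2 without NZO/HlLtJ female 10% fat replicate 4, 3 without NZO/HlLtJ male 10% fat replicate 3 and 11 without NZO/HlLtJ female 10% fat replicate 3. The share of all genes called in each of these other fits is not given here, so their counts are not set against all genes. Within the 1 identifier run that held both diets in both sexes of NZO/HlLtJ, the differences were 0.17 for Ndufa10, 0.17 for Ndufs1, 0.09 for Sdha, 0.16 for Uqcrc1, 0.14 for Uqcrc2 and 0.18 for Uqcrfs1 on the log2 scale. The Krebs cycle and pyruvate dehydrogenase list gave 11 of 17 (11 higher and 0 lower) called by diet in NZO/HlLtJ livers, where 5.64% of all genes were called, and a median of 0.22; Dlst was at 0.33 and Fh1 at 0.36. The assembly list gave 5 of 45 (5 higher and 0 lower), the regulators 1 of 13 (1 higher and 0 lower), the mitochondrial DNA and RNA factors 1 of 30 (1 higher and 0 lower), the mitochondrial ribosome 0 of 77 (0 higher and 0 lower) and the cytosolic ribosome 16 of 78 (0 higher and 16 lower).

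The single call in C57BL/6J livers was Atp5g3, a gene for the c subunit. It ran over 236 to 329 CPM in livers on 44% fat (median 279), against 209 to 273 CPM in livers on 10% fat (median 246), with overlap and a fold change of 0.20 ± 0.05, adjusted p = 0.0357. With copies added to the members Atp5g3 was again the single call, where 0.986% of all genes were called (0.818% higher). Within the 3 identifier runs its differences were 0.25, 0.22 and 0.16 on the log2 scale. The call was lost in 10 of 16 refits that left out 1 C57BL/6J library and under 4 alternative settings, among them the fit without the 5 acinar libraries (0.20, adjusted p = 0.186). Although few members passed, 87 of 91 had a positive fold change in C57BL/6J livers and 34 had an unadjusted p under 0.05. The medians were 0.12 for nuclear and 0.19 for mitochondrial members, beside 0.01 over all genes. Fold changes of the members are not independent of each other, so the count of signs carries no test.

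Most mitochondrially encoded members had a positive diet fold change in each strain, and edgeR's test on all libraries called none. Without the 5 acinar libraries the same test called mt-Nd1 (0.28, adjusted p = 0.0389) and mt-Co1 (0.23, adjusted p = 0.0398) in NZO/HlLtJ livers. The median was 0.20 in NZO/HlLtJ (12 of 13 positive), 0.16 in CAST/EiJ (13 of 13) and 0.19 in C57BL/6J livers (13 of 13). Nuclear medians were 0.04, 0.02 and 0.12 in the same order of strains. Summed with their copies, the mitochondrial members stood at 55.6 to 75.3 kCPM (median 66.9) on 44% fat, against 42.4 to 64.5 kCPM (median 58.9) on 10% fat in NZO/HlLtJ livers. In CAST/EiJ livers the sums were 72.8 to 96.7 kCPM (median 82.5) on 44% fat and 69.9 to 83.5 kCPM (median 75.7) on 10% fat, and in C57BL/6J livers 43.2 to 75.2 kCPM (median 64.5) and 47.2 to 75.4 kCPM (median 52.6). The diets overlapped in each strain. The group mean on 44% fat was the higher one in all 6 pairings of strain and sex, by a factor of 1.08 to 1.23. The nuclear sum was higher on 44% fat in 5 of 6 pairings, with ratios of 44% to 10% fat of 0.989 to 1.09. The mitochondrial members with the smallest p were mt-Nd3 in CAST/EiJ (0.28 ± 0.13, adjusted p = 0.342), mt-Cytb in C57BL/6J (0.28 ± 0.09, adjusted p = 0.122) and mt-Nd1 in NZO/HlLtJ livers (0.28 ± 0.09, adjusted p = 0.068).

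Within identifier runs the mitochondrial median diet difference was 0.02, 0.42 and 0.15 in C57BL/6J livers and 0.25, 0.12 and 0.09 in CAST/EiJ livers for the 3 runs, and 0.23 in the 1 run of NZO/HlLtJ libraries where it could be computed. The nuclear median was 0.14, 0.13 and 0.04 in C57BL/6J, -0.02, 0.02 and 0.07 in CAST/EiJ and 0.05 in NZO/HlLtJ livers.

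**Figure D4:**
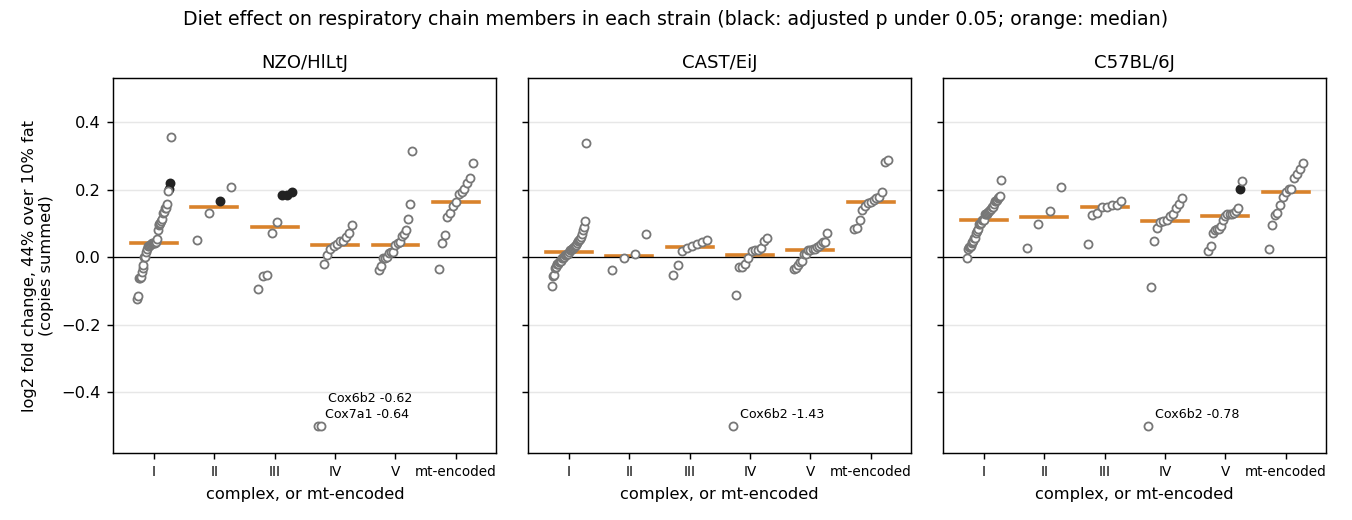
Log2 fold changes of 44% over 10% fat for the 91 tested members in each strain, by complex for nuclear members and together for mitochondrially encoded ones, with copies added to their members; black points have an adjusted p under 0.05 and orange lines are medians. Called points appear in complexes I, II and III of NZO/HlLtJ and complex V of C57BL/6J, and the mitochondrial medians lie at 0.16 in NZO/HlLtJ, 0.16 in CAST/EiJ and 0.19 in C57BL/6J, while points below -0.5 are drawn at that edge with their values.

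A difference of the diet effect among the strains was not called for any member (0 of 91, with 4 at an unadjusted p under 0.05, where 0.048% of all genes were called by edgeR and DESeq2 called 1 member). The smallest adjusted p were 0.151 for Ndufb4, 0.406 for Uqcrfs1, 0.467 for Sdhb, 0.468 for Atp5f1 and 0.486 for both Ndufc1 and Ndufs4. So the 7 calls in NZO/HlLtJ and the absence of calls in CAST/EiJ livers do not show that the strains differed. A difference of the diet effect between females and males was not called either (0 of 91 by edgeR, 2 at an unadjusted p under 0.05, where 0.012% of all genes were called), with Atp5sl at the smallest adjusted p of 0.866 and Ndufs4 at 0.94.

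Females had lower levels of many nuclear members than males in NZO/HlLtJ and C57BL/6J livers and a mixed pattern in CAST/EiJ livers. In NZO/HlLtJ, 25 of 91 members were called, all nuclear and all lower in females, where 17.2% of all genes were called (9.31% higher and 7.94% lower). In CAST/EiJ, 7 were higher and 6 lower, where 30.3% were called. In C57BL/6J, 1 was higher and 15 lower, where 16.8% were called (8.7% higher and 8.1% lower). The nuclear medians were -0.13, 0.01 and -0.11 in NZO/HlLtJ, CAST/EiJ and C57BL/6J livers, beside 0.02, 0.01 and 0.01 over all genes, and the mitochondrial medians were -0.09, 0.02 and -0.14. The one mitochondrial call was mt-Nd2 in C57BL/6J livers (-0.29 ± 0.09, adjusted p = 0.0286), which was not called without the 5 acinar libraries (-0.30, adjusted p = 0.0572). That fit called mt-Nd5 (-0.25, adjusted p = 0.0446) and the nuclear Cox6b1 (-0.18, adjusted p = 0.0361) lower in NZO/HlLtJ females and mt-Cytb higher in CAST/EiJ females (0.26, adjusted p = 0.0103). Without the 5 acinar libraries the counts were 37, 12 and 8 in NZO/HlLtJ, CAST/EiJ and C57BL/6J livers, and the C57BL/6J count was also 8 with that strain fitted alone. The shares of all genes above belong to the fit on all libraries, so these other counts are not set against all genes.

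Cox7a2, the liver form of a complex IV subunit, had the smallest p in NZO/HlLtJ and C57BL/6J livers. In NZO/HlLtJ it ran over 58.2 to 76.2 CPM in females (median 74.5), against 86.0 to 104 CPM in males (median 92.5), with no overlap and a fold change of -0.39 ± 0.05, adjusted p = 1.14e-06. In C57BL/6J it ran over 63.6 to 85.3 CPM in females (median 74.1), against 86.6 to 113 CPM in males (median 91.0), again with no overlap, at -0.35 ± 0.05, adjusted p = 8.39e-06. In CAST/EiJ livers it ran over 90.3 to 107 CPM in females (median 95.4), against 96.1 to 110.0 CPM in males (median 103), with overlap, at -0.07 ± 0.06, adjusted p = 0.359. Ndufa4 followed the same order: 109.8 to 139 CPM in females (median 122), against 139.8 to 165 CPM in males (median 159) of NZO/HlLtJ, with no overlap (-0.32 ± 0.06, adjusted p = 0.000115), 123 to 163 CPM in females (median 135), against 150.4 to 195 CPM in males (median 163) of C57BL/6J, with overlap (-0.27 ± 0.06, adjusted p = 0.0011), and 119.9 to 147 CPM in females (median 129.8), against 118 to 141 CPM in males (median 129.8) of CAST/EiJ, with overlap (0.04 ± 0.06, adjusted p = 0.697). Sdha was lower in females of all 3 strains, at -0.23 ± 0.05, adjusted p = 0.000338 in NZO/HlLtJ, -0.15 ± 0.05, adjusted p = 0.0108 in CAST/EiJ and -0.22 ± 0.05, adjusted p = 0.000412 in C57BL/6J livers. Further lower calls in NZO/HlLtJ females, all with overlapping groups, were Atp5a1 (-0.23 ± 0.05), Uqcrc1 (-0.22 ± 0.05) and Uqcr10 (-0.29 ± 0.07), with adjusted p of 0.00107, 0.00205 and 0.00312. In C57BL/6J females Atp5g3 (-0.23 ± 0.05, adjusted p = 0.00129) and Ndufs6 (-0.24 ± 0.06, adjusted p = 0.00301) were lower, Atp5s was the higher call (0.41 ± 0.15, adjusted p = 0.0472), and the call of Cox5b (-0.19 ± 0.07, adjusted p = 0.0351) was lost with its copy added (-0.16 ± 0.07, adjusted p = 0.111). Without the 5 acinar libraries Atp5s (0.28, adjusted p = 0.316), Cox5b (-0.21, adjusted p = 0.0906), Atp5a1 (-0.13, adjusted p = 0.187), Cox8a (-0.16, adjusted p = 0.156) and Uqcrc1 (-0.13, adjusted p = 0.214) were not called in C57BL/6J livers.

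In CAST/EiJ livers the sex difference with the smallest p was in Ndufb3, a membrane arm subunit of complex I, which ran over 27.6 to 32.6 CPM in females (median 29.6), against 33.6 to 44.9 CPM in males (median 38.01). The sexes did not overlap, and the fold change was -0.37 ± 0.08, adjusted p = 0.000641. Ndufv1, which binds NADH, was lower in females (-0.21 ± 0.05, adjusted p = 0.0024). Atp5g1 ran over 124 to 157 CPM in females (median 135), against 97.6 to 134 CPM in males (median 112) and was higher in females (0.28 ± 0.07, adjusted p = 0.00215), as were Ndufb8 (0.28 ± 0.08, adjusted p = 0.00761) and Sdhb (0.21 ± 0.07, adjusted p = 0.0159). Ndufa7 (0.20 ± 0.08), Cox7a2l (0.17 ± 0.06) and Atp5sl (0.24 ± 0.09) were also higher, and Ndufv3 (-0.21 ± 0.07), Ndufs5 (-0.19 ± 0.07) and Ndufa13 (-0.21 ± 0.08) lower. In the fit without the 5 acinar libraries Ndufa7 (0.16, adjusted p = 0.0842) and Atp5sl (0.24, adjusted p = 0.056) were not called.

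A test of whether the sex effect differed among the strains called 8 of 91 members, a smaller share than the 13.6% called over all genes. Sdhb had the smallest adjusted p, 0.000668. It ran over 117 to 177 CPM in females (median 156), against 163 to 211 CPM in males (median 183) of NZO/HlLtJ, over 168 to 207 CPM in females (median 185), against 141 to 179 CPM in males (median 165) of CAST/EiJ and over 99.1 to 145 CPM in females (median 116), against 111 to 146 CPM in males (median 129) of C57BL/6J. Females lay lower in NZO/HlLtJ and C57BL/6J and higher in CAST/EiJ livers, with overlap in each. The female effect on Sdhb in NZO/HlLtJ less that in CAST/EiJ was -0.49 ± 0.09, adjusted p = 0.000331, and that in CAST/EiJ less that in C57BL/6J was 0.36 ± 0.09, adjusted p = 0.00803. The others were Ndufb4 (adjusted p = 0.00297), Ndufa4 (0.00491), Cox7a2 (0.00786), the complex I core subunit Ndufs3 (0.0154), the ATP synthase gamma subunit Atp5c1 (0.0173), Cox8a (0.0413) and Ndufa10 (0.0495). In each of the 8 the female effect was lower in NZO/HlLtJ than in CAST/EiJ by a called difference (-0.49 for Sdhb to -0.24 for Ndufa10), in a comparison of sex effects that called 7.2% of all genes higher and 6.45% lower. Between CAST/EiJ and C57BL/6J the difference was called, among these 8, for Sdhb, Ndufa4 (0.31), Cox7a2 (0.27) and Ndufs3 (0.24), where 4.63% of all genes were called higher, and between NZO/HlLtJ and C57BL/6J for none of the 91 members by edgeR's test (2 at an unadjusted p under 0.05). The call of Ndufb4 was lost with Ndufb4c added (adjusted p = 0.22).

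**Figure D5:**
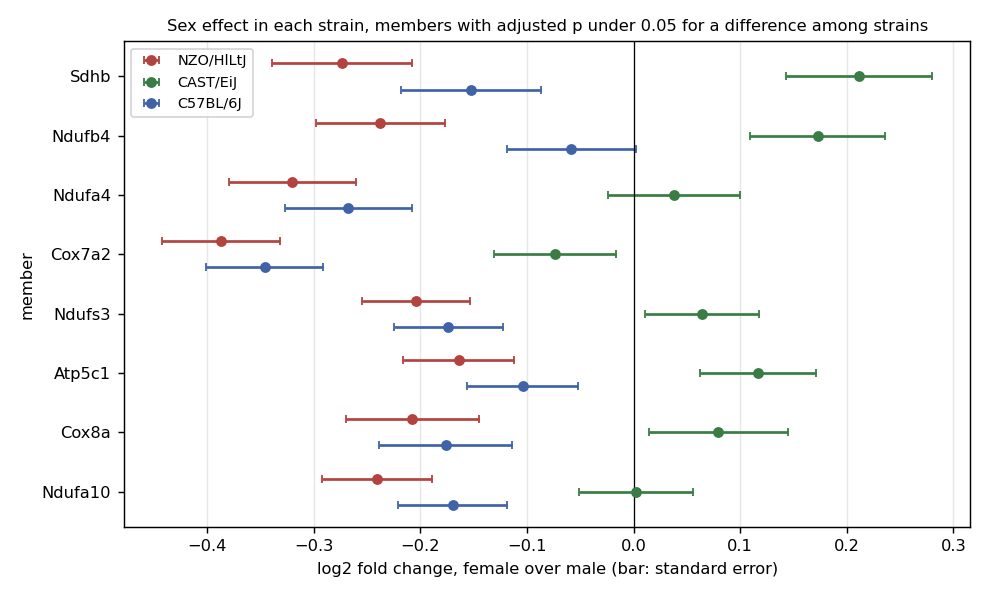
Log2 fold changes of females over males in each strain for the 8 members whose sex effect differed among the strains at an adjusted p under 0.05; points are estimates and bars their standard errors. NZO/HlLtJ and C57BL/6J points lie below 0 for all 8 members (Sdhb at -0.27 and -0.15), and the CAST/EiJ points lie nearer or above 0 (Sdhb at 0.21). The 8 were called without copies, and with its copy added Ndufb4 was not called by edgeR's test (adjusted p = 0.22).

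Promoters of the nuclear members were searched for motifs of factors known for respiratory genes. Windows from 250 bases before to 50 bases after the gene start (RefSeq, GRCm38.p6) were matched for 64 of 79 nuclear members and searched on both strands. The palindromic Nrf1 motif was in 17 of the 64 (26.6%) and in 5.19% of 27025 genes. The ETS motif CCGGAAG, as bound by GABP, was in 16 (25%) and in 9.93% of all genes, and the YY1 motif AAGATGG in 10 (15.6%) and 7.28%. At least 1 of the 3 was in 37 members (57.8%) and in 20% of all genes. These are matches of letters, and no test was made.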

How the data were processed

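Liver RNA-seq of 47 libraries was used as the authors' deposited table of expected counts per gene on GRCm38, per the submitters' processing notes. The aligner, the counter and the use of strand are, in the sources used here, not given, so reads of overlapping or antisense genes cannot be told apart. The deposited log2 table holds variance-stabilized values, for which the submitters' processing notes name DESeq2, and served for one alternative. The expected counts (20.3% not whole, tolerance 1e-06) were rounded. Genes in the table were above 0 in at least 24 libraries, and totals of 21.6 to 47.8 M limit the precision of low members.

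edgeR 4.0.16 (R 4.3.3) fitted all 12 groups with TMM factors and a robust quasi-likelihood test on the 16650 genes that passed filterByExpr, with 35 residual degrees of freedom, a prior count of 2 and Benjamini-Hochberg adjustment over those genes. CPM values use TMM-scaled library sizes. The fits were tested on simulated data. Near-identical copies were found with BLAST 2.17.0 in GENCODE M21 transcripts. Alternatives used DESeq2 1.42.0, limma 3.58.1, other scalings and filters, the identifier run as a covariate, single strains, and refits without the 5 acinar libraries or without each of the 47 libraries; summing the copies was chosen after seeing the data. The members, lists and tests were chosen with earlier results of these data known. Named in each comparison were, of the called members, those with the smallest p in each complex and the highest and lowest fold changes, with the mitochondrial members and isoforms. Python 3.11.15, pandas 2.3.3 and numpy 2.4.6 made the summaries. Values of some single genes are not reported here.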

Additional observations from a re-analysis of the deposited data

Results flagged for a closer look

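The sex effect of 8 of 91 members differed among the strains by a test of the difference itself. This is a smaller share than the 13.6% called over all genes. The adjusted p from edgeR's quasi-likelihood test were 0.000668 for Sdhb, 0.00297 for Ndufb4, 0.00491 for Ndufa4, 0.00786 for Cox7a2, 0.0154 for Ndufs3, 0.0173 for Atp5c1, 0.0413 for Cox8a and 0.0495 for Ndufa10. For all 8 the female effect was lower in NZO/HlLtJ than in CAST/EiJ livers, from -0.49 for Sdhb to -0.24 for Ndufa10 on the log2 scale. The result for Ndufb4 was lost when its copy was added, at an adjusted p of 0.22. A search for single libraries far from the rest of their group, over 44 combinations of group and summed level, found none, where chance alone marks about 1 in 20.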

How the results depend on the processing

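Of the counts of called members, those between strains kept within 1.5 times their value under every setting run. The diet count in C57BL/6J livers was 1 and became 0 with scaling that leaves out mitochondrial genes, with no expression filter, without the 5 acinar libraries and with the strain fitted alone, and 2 with DESeq2. Its mitochondrial median diet difference of 0.19 was 0.42 within identifier run 2. The diet count in NZO/HlLtJ livers of 7 became 3 with the strain alone and 13 with DESeq2. The sex count in C57BL/6J livers of 16 became 10 with no filter and 8 both without the acinar libraries and with the strain alone. DESeq2 called 1 member whose diet effect differed among strains, against 0. The count of 8 members whose sex effect differed among strains became 14 with RLE size factors, 13 with a stricter filter, 16 with limma and 21 with DESeq2. Shares of all genes called are not set beside the counts under other settings or in the refits below. These counts therefore do not show that members moved more than other genes. The median nuclear sum in CAST/EiJ livers of 10.3 kCPM became 10.9 kCPM with scaling without mitochondrial genes. With copies summed, mt-Co2 turned to 0.36 in CAST/EiJ against C57BL/6J and to -0.30 in NZO/HlLtJ against CAST/EiJ. The cause of these moves was not tested, apart from the summing of copies, which changes the counts directly.

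Leaving out 1 library at a time gave ranges of 0 to 4 for the diet count in C57BL/6J, 2 to 11 for the diet count in NZO/HlLtJ, 14 to 36, 7 to 14 and 6 to 25 for the sex counts in NZO/HlLtJ, CAST/EiJ and C57BL/6J, and 5 to 17 for the sex effect differing among strains. Counts moved by more than 1.5 times without these libraries. For the diet in NZO/HlLtJ they were female 10% fat replicate 4 (2) and 3 (11) and male 10% fat replicate 3 (3), and for the diet in C57BL/6J 13 of 16 refits moved the count. For the sexes they were, in NZO/HlLtJ, female and male 10% fat replicate 4 (14 and 16), in CAST/EiJ, male 10% fat replicates 2 and 3 (7 each) and female 44% fat replicate 4 (8), and in C57BL/6J, female 10% fat replicate 1 (6), female 44% fat replicates 1 (7) and 2 (25), male 44% fat replicates 1 (9) and 2 (10) and male 10% fat replicate 4 (10). For the difference among strains they were CAST/EiJ male 10% fat replicates 1 (17) and 2 (5), C57BL/6J female 44% fat replicate 2 (14) and male 44% fat replicate 3 (13), and NZO/HlLtJ female 10% fat replicate 3 (15). No paired analysis was possible because the labels carry no replicate numbers and the numbers used here follow accession order.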
